A study of Homo sapiens with 18 samples.

Results

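In the breast cancer cell line MDA-MB-231, 35 protein-coding genes stood at 0.5 times the control level or less under knockdown of the histone methyltransferase EZH2 and, separately, under knockdown of the transcription factor E2F1. They were selected on their TPM, a transcript level scaled for transcript length and sequencing depth: at least 5 TPM in both control libraries, with the highest TPM of the 4 knockdown libraries at or below 0.5 times the lower control TPM. Of 9396 protein-coding genes that reached 5 TPM in both controls, 35 met the ratio (0.372%). A further 9 genes, among them E2F1 itself and several cell cycle genes, were left out by name, and 5 of these also met the thresholds. The actin-binding protein gene TAGLN, the receptor tyrosine kinase gene AXL, the collagen gene COL8A1 and the insulin-like growth factor binding protein gene IGFBP4 were in the set. In cells given the EZH2 inhibitor GSK126, 0 of the 35 genes passed the test against DMSO in edgeR, as did 0% of genes tested. In this fit, without a replicate term, 1 of the 35 had an unadjusted p under 0.05 (3.94% of all genes tested had). With a replicate term, 9 of the 35 and 1990 of all 14632 genes had an adjusted p under 0.05 in edgeR. Both GSK126 libraries were above both DMSO libraries in 11 of the 35 (31.4%, against 15.4% of genes at 5 TPM or more). They were below both in 3 (8.57%, against 10.8%). All fitted changes of the 35 were smaller than 2-fold in the fits that left out no library.

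MDA-MB-231 is a triple-negative line, and its markers were read over all libraries. They showed the mesenchymal gene VIM at 1185 to 2860 TPM, the epithelial gene CDH1 at 0.26 to 4.5 TPM, ESR1 at 0.17 TPM or less and PGR listed at 0 TPM. The knockdown experiment held 2 libraries each of Control shRNA, shEZH2 and shE2F1, from cells transduced with lentivirus for 24 h and selected in puromycin at 2 ug/ml for 72 h. The drug experiment held 2 libraries each of DMSO and GSK126 at 1 uM, both for 72 h and without shRNA or puromycin in the labels. Each knockdown rested on 1 hairpin, and both were read against the same 2 control libraries, so effects of the target and other effects of its hairpin cannot be told apart. The records numbered 18, of which 8 repeated the values of other records, which left 10 distinct libraries of 13198932 to 20055550 expected counts. Nothing in the labels says whether the replicates came from separate cultures, so the p-values below measure the spread between these libraries, which may be technical.

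EZH2 is the enzyme within the Polycomb repressive complex PRC2 that puts methyl groups on histone H3, a mark best known for keeping genes silent. E2F1 binds the promoters of genes for DNA replication and cell division and activates them when the retinoblastoma protein lets it go. GSK126 competes with the methyl donor in the catalytic site of EZH2, so it blocks methylation while the protein remains, whereas an shRNA lowers the protein itself. The drug libraries address whether genes lower under both knockdowns also respond when methylation is blocked.

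EZH2 stood at 90.78 and 102 TPM in the control libraries, at 31.9 and 26.5 TPM in shEZH2 and at 77.1 and 90.75 TPM in shE2F1. E2F1 stood at 81.6 and 74.7 TPM in the controls, at 40.1 and 20.02 TPM in shEZH2 and at 16.1 and 14.6 TPM in shE2F1. Both libraries of each hairpin had its target below both controls, at 30.2% of the control mean for EZH2 and 19.6% for E2F1. The shEZH2 libraries also had E2F1 below both controls, at 38.5% of their mean, while EZH2 in shE2F1 had a mean at 87.0% of control, with 1 of its libraries level with the lower control. The transcript of E2F1 was thus lower under both hairpins. Whether the genes fell in shEZH2 with EZH2 or with E2F1 was not tested.

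The promoters of 4 genes are printed first because the set was assembled from falling transcripts, and the promoter is where E2F1 and its partners would be looked for. Each is the RefSeq window of 300 bases (250 before the annotated start and 50 from it, build GRCh38.p14), read 5′ to 3′ on the strand of the gene. SRF, the serum response factor that drives actin and cytoskeletal genes, is shown for its CArG boxes (the sequence that SRF protein itself binds) and CCAAT boxes in capitals, at chr6:43171019-43171318 on the plus strand. KIF20A, a mitotic kinesin, is shown with its CCAAT boxes in capitals, which lie on the opposite strand and so read ATTGG, at chr5:138178862-138179161 on the plus strand. PSRC1, a spindle protein, is shown with its CCAAT box in capitals, at chr1:109283096-109283395 on the minus strand. PFKL, the liver-type phosphofructokinase of glycolysis, is shown with its GC boxes (GGGCGG, or CCGCCC for the opposite strand) in capitals, at chr21:44299803-44300102 on the plus strand.
SRF: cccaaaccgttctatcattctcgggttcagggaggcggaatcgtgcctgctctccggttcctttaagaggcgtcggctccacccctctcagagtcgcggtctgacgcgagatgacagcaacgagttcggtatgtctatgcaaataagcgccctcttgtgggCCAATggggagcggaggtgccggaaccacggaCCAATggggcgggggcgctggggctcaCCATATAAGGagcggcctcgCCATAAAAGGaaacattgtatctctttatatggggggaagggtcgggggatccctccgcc
KIF20A: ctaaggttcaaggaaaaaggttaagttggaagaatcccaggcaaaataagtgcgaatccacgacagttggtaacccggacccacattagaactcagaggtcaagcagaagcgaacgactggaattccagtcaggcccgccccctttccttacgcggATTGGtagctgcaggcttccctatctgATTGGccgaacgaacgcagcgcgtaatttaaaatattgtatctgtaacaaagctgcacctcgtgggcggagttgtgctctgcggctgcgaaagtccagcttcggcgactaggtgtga
PSRC1: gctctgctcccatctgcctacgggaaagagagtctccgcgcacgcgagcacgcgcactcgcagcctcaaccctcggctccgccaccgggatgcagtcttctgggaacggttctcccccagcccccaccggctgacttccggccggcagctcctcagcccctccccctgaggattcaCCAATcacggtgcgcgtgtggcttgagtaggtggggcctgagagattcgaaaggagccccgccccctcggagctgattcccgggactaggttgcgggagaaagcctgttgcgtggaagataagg
PFKL: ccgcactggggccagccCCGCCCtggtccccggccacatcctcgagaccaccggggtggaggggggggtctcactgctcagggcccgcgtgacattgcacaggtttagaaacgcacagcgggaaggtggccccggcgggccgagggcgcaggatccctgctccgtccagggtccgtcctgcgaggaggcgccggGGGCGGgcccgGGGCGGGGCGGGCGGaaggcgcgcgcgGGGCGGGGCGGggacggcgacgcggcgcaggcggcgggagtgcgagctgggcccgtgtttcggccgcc

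In the SRF window, CArG boxes began 30 and 10 bases before the start and CCAAT boxes 89 and 57 bases before it. The KIF20A window had CCAAT boxes beginning 94 and 67 bases before the start, and the PSRC1 window had 1 at 74 bases. PFKL had 7 GC boxes, several of them overlapping. Of the 35 genes, 24 matched a RefSeq window, and those without one included TAGLN, CST6, TMEM92, ENSG00000267645, COL8A1, AIF1L, ESRP2, SEMA6B, SLC29A2 and ITGA3. The 24 windows were searched on both strands for 7 short motifs. The E2F motifs searched (TTTCCCGC, TTTGGCGC, TTTCGCGC and TTTGCCGC) occurred in 0 of the 24 windows, against 5.94% of the 7791 windows of genes at 5 TPM or more and 3.33% of all 27305 windows, which says no more than that these letters were not in these windows. The CHR element, found before many genes of late cell cycle, was searched only as TTTGAA. These letters were in 0 windows, against 8.96% and 15.4%, and no other form of the element was searched. CCAAT boxes were in 12 windows (50%, against 37.3% and 35.7%), and GC boxes in 19 (79.2%, against 73.1% and 44.6%). AP-1 sites (TGACTCA or its reverse TGAGTCA) were in the windows of MXD3 and NAGS (8.33%, against 2.67% and 4.92%), ETS sites (CCGGAAG) in those of ACP2, LRRC61 and PSRC1 (12.5%, against 22.3% and 10.7%), and TEAD sites (CATTCC) in those of PPP1R3F and TNFAIP8L1 (8.33%, against 10.7% and 14%). The CArG box, added to the search once the gene names were known, was in the SRF window alone (4.17%, against 1% and 1.29%). With 24 windows each gene is worth several percentage points, so that most of these shares are a gene or a few away from the shares beside them. The 24 windows had a median GC content of 64.8% and 23.5 CpG dinucleotides, close to the 65.7% and 27 of the genes at 5 TPM or more.

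**Figure D1:**
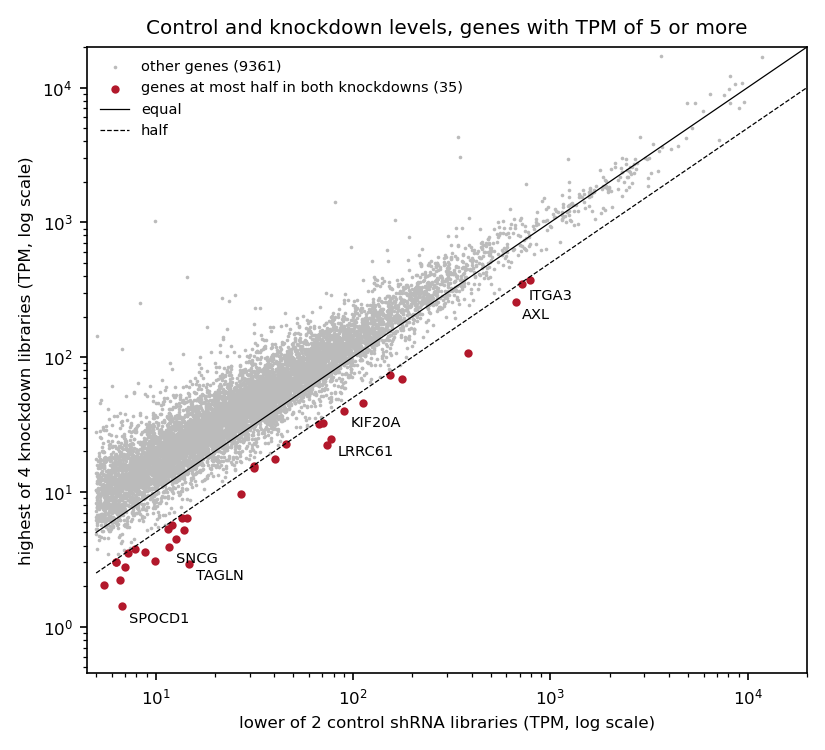
Each point is 1 of 9396 protein-coding genes, with the lower control TPM on the x axis and the highest of the 4 knockdown TPM on the y axis, both on log scales. The 35 red points lie on or under the dashed line of 0.5 times the control, from SPOCD1 and ENSG00000267645 at the low end to AXL, ITGA3 and IGFBP4 at the high end.

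The values in this and the following paragraphs on the knockdown libraries are what chose the genes, so they are given as a description without a test. The genes kept a median of 30.6% of the mean control TPM in shEZH2 (range 9.16% to 45.7%) and 34.0% in shE2F1 (range 2.55% to 43.2%). The median gene at 5 TPM or more stood at 110% and 110.7%, a shift of 0.14 and 0.15 on the log2 scale, whereas the TMM-scaled count fit had medians of -0.02 and -0.0005 over 15373 genes. Relative to that median gene, the set kept 0.278 times its control level in shEZH2 and 0.307 times in shE2F1. Less than 25% of the control mean was left in 11 genes in shEZH2 and 9 in shE2F1. These are bulk libraries, so fewer cells that carry a transcript and less of it per cell cannot be told apart. In the count fit across all genes, 34 of the 35 were called lower in shEZH2 and 35 in shE2F1 (edgeR, adjusted p under 0.01 and more than 2-fold), where 10.7% and 5.96% of all genes tested were called lower, a count that the choice of the genes fixes. The gene not called in shEZH2 was ENSG00000267645. Mean control levels ran from 5.88 TPM (ENSG00000267645) to 858.6 TPM (IGFBP4) with a median of 16.6 TPM, against 29.2 TPM for genes at 5 TPM or more. The set included 7 genes at 100 TPM or more and 9 under 10 TPM. The lowest control library held a median of 388 expected counts per gene (lowest 69, SLC27A5) and the lowest knockdown library a median of 75.

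**Figure D2:**
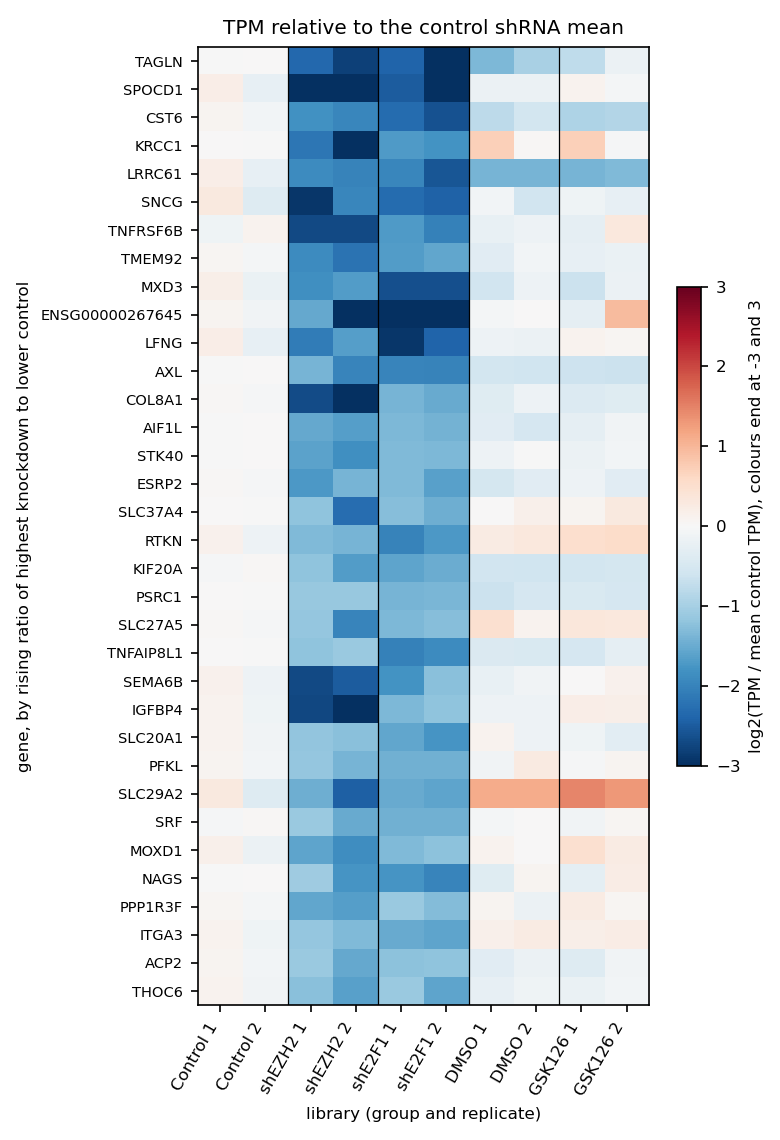
Rows are 34 of the 35 genes and columns the 10 libraries, coloured by log2 of TPM over the mean control TPM (values under -3, the zeros of ENSG00000267645 among them, take the end colour). The 4 knockdown columns are blue in every row, while the DMSO and GSK126 columns are near white in most. LRRC61 and CST6 are among those below the control level in both groups, and SLC29A2 is above it. TAGLN is further below it in DMSO than in GSK126.

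The genes were sorted by role once their values were known. The 6 genes of actin, adhesion and matrix kept medians of 36.1% of control in shEZH2 and 35.4% in shE2F1. TAGLN (chr11:117199370-117207464, plus strand in hg38) encodes transgelin, which bundles actin filaments in smooth muscle and fibroblast-like cells. It had 14.9 and 14.99 TPM in the control libraries, 2.94 and 2.13 TPM in shEZH2 and 2.83 and 1.75 TPM in shE2F1. Its highest knockdown value was 0.198 times the lower control value, the smallest such ratio of the set, and the fitted log2 changes were -2.75 ± 0.26 (SE) and -2.48 ± 0.24. The exons of TAGLN share 38.1% of their bases with another gene on the same strand and 34.1% with PCSK7 on the opposite strand, so some reads could belong to either. Of the 35 genes, 5 shared more than 10% of exon bases with a gene on the same strand and 7 with one on the opposite strand. Among them MXD3 shared 19.5% with RAB24 on the same strand and 24.2% with PRELID1 on the opposite strand. LRRC61 shared 23.8% with ZBED10P on the same strand. SRF, whose promoter is printed above, had 31.7 and 33.4 TPM in the controls, 15.1 and 11.4 TPM in shEZH2 and 12.02 and 11.9 TPM in shE2F1. The 4 knockdown libraries of SRF lay within 11.4 to 15.1 TPM, at most 0.477 times the lower control. ITGA3 (chr17:50055968-50090481, plus strand), the alpha chain of a laminin receptor, was among the most abundant of the set, with 852 and 719.6 TPM in the controls, 349.9 and 314 TPM in shEZH2 and 275 and 262 TPM in shE2F1. COL8A1 (chr3:99638475-99799226, plus strand), a chain of the short network-forming collagen VIII, had 184 and 176 TPM in the controls. Its shEZH2 libraries were at 27.8 and 19.7 TPM and its shE2F1 libraries at 68.4 and 63.3 TPM, and the shEZH2 pair was the lower. The actin-binding gene AIF1L (7.01 and 7.07 TPM in the controls) and RTKN (17.6 and 14.4 TPM), kept 33.2% and 38.9% of control in shEZH2 and 38.2% and 27.5% in shE2F1.

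Genes of surface and secreted signalling made up a further 6, with a median of 21.7% of control in shEZH2 and 26.4% in shE2F1. AXL (chr19:41219223-41261766, plus strand), the receptor for the ligand GAS6, had 668 and 683 TPM in the controls, 256 and 171 TPM in shEZH2 and 169.9 and 169 TPM in shE2F1. IGFBP4 (chr17:40443450-40457725, plus strand), which binds insulin-like growth factors outside the cell, had the highest control level of the set, 927 and 789.9 TPM. It stood at 129 and 78.4 TPM in shEZH2 and at 340.1 and 373 TPM in shE2F1. All 4 knockdown libraries of IGFBP4 were below the controls, and the shEZH2 pair was below the shE2F1 pair by a wide gap. CST6, a secreted inhibitor of cysteine proteases, had 82.8 and 74 TPM in the controls, 22.1 and 20.1 TPM in shEZH2 and 15.8 and 12.7 TPM in shE2F1. LFNG, a glycosyltransferase that modifies Notch receptors, had 19.1 and 14.01 TPM in the controls, 3.86 and 5.24 TPM in shEZH2 and 2.2 and 3.14 TPM in shE2F1. SEMA6B, a membrane-bound semaphorin, had 14.9 and 12.2 TPM in the controls, 2.08 and 2.39 TPM in shEZH2 and 3.91 and 5.72 TPM in shE2F1. These last 3 genes did not order the knockdowns alike, since CST6 and LFNG were lower in shE2F1 and SEMA6B in shEZH2. TNFRSF6B, a decoy receptor that binds Fas ligand, had 6.59 and 7.76 TPM in the controls, 1.09 and 1.09 TPM in shEZH2 and 2.22 and 1.77 TPM in shE2F1. All of its exons are shared with the readthrough gene RTEL1-TNFRSF6B, so its count depends on how reads were divided between them.

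Among genes of transcription, chromatin and RNA, SPOCD1 (chr1:31790422-31816022, minus strand), known from piRNA-directed silencing in the male germ line, had 9.26 and 6.79 TPM in the controls, 0.75 and 0.72 TPM in shEZH2 and 1.42 and 0.73 TPM in shE2F1. It kept the smallest share of control of the whole set in shEZH2, 9.16%, at a level where its libraries held as few as 13 expected counts. MXD3, a partner of MAX that represses targets of the MYC network, had 34.9 and 27.1 TPM in the controls, 8.63 and 9.67 TPM in shEZH2 and 4.98 and 4.98 TPM in shE2F1. ESRP2, a splicing regulator of epithelial cells, had 9.21 and 8.81 TPM in the controls and 2.71 to 3.6 TPM in the 4 knockdown libraries. THOC6, a subunit of the complex that prepares mRNA for export, had 53.1 and 45.9 TPM in the controls and 16.02 to 22.7 TPM in the knockdown libraries.

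The mitotic members numbered 2, a count made after several cell cycle genes were left out by name. KIF20A (chr5:138178719-138187723, plus strand), a kinesin of the central spindle needed for cytokinesis, had 90.4 and 96.01 TPM in the controls, 40.05 and 29.2 TPM in shEZH2 and 31.3 and 33.2 TPM in shE2F1. PSRC1, which binds spindle microtubules, had 70.97 and 70.5 TPM in the controls, 32.3 and 32.3 TPM in shEZH2 and 26.7 and 27.2 TPM in shE2F1. Both genes sat at closely matched levels within each pair of libraries, apart from KIF20A in shEZH2.

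Metabolic enzymes and transporters supplied 8 genes, with medians of 36.7% of control in shEZH2 and 37.6% in shE2F1. SLC20A1, a sodium-phosphate cotransporter, was the most abundant, with 179.6 and 155 TPM in the controls, 73.4 and 70.7 TPM in shEZH2 and 57.2 and 49.3 TPM in shE2F1. PFKL, whose promoter with its GC boxes is printed above, had 76.2 and 67.5 TPM in the controls, 32.01 and 27.6 TPM in shEZH2 and 26.3 and 26.4 TPM in shE2F1. SLC37A4, which carries glucose 6-phosphate into the endoplasmic reticulum, had 41.4 and 40.1 TPM in the controls, 17.6 and 8.39 TPM in shEZH2 and 16.7 and 14.8 TPM in shE2F1. For SLC37A4 the shEZH2 libraries differed from each other by more than the shE2F1 libraries did. The lysosomal acid phosphatase gene ACP2, the nucleoside transporter gene SLC29A2, the bile acid and fatty acid ligase gene SLC27A5, the N-acetylglutamate synthase gene NAGS and the glycogen-targeting phosphatase subunit gene PPP1R3F had 6.34 to 35.3 TPM in the controls and 1.52 to 15.5 TPM in the knockdown libraries.

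The remaining 8 genes had mixed or unassigned roles. SNCG, the gene of gamma-synuclein, had 18.8 and 11.7 TPM in the controls, 2.02 and 3.93 TPM in shEZH2 and 3.1 and 2.86 TPM in shE2F1, and its control libraries were further apart than those of most members. STK40, a kinase-like protein gene, had 113 and 114 TPM in the controls, 37.5 and 31.9 TPM in shEZH2 and 45.5 and 44.7 TPM in shE2F1. LRRC61, a leucine-rich repeat gene, had 105 and 77.4 TPM in the controls, 24.6 and 22.6 TPM in shEZH2 and 23.5 and 15.3 TPM in shE2F1. The monooxygenase gene MOXD1, the TNFAIP8 family gene TNFAIP8L1, KRCC1 and TMEM92 had 6.31 to 13.98 TPM in the controls and 1.27 to 6.35 TPM in the knockdown libraries. ENSG00000267645, which carries no symbol in GENCODE, had 6.27 and 5.49 TPM in the controls, 2.02 and 0 TPM in shEZH2 and 0.3 and 0 TPM in shE2F1. It shares 72.3% of its exon bases with UPK3BL1, and the spread that the quantifier reports from dividing shared reads was 40.9% of its count in a control library, so its level is uncertain.

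At the edge of the rule, THOC6, ACP2, ITGA3 and PPP1R3F were the last genes inside, with ratios of 0.495, 0.489, 0.486 and 0.484. HYI, PRMT6, CHST2 and PEMT were the first outside, at 0.505, 0.505, 0.511 and 0.513. HYI, for example, had 215 and 173 TPM in the controls and 41.7 to 87.5 TPM in the knockdown libraries, a pattern much like that of the genes inside. The highest knockdown library was the first shEZH2 library in 18 of the 35 genes (also the library with the fewest counts), the second shEZH2 library in 4, and an shE2F1 library in the other 13. The lower control library was the second in 27 of the 35 genes and the first in 8. Without the second control library the same rule took in 109 genes, without the first shEZH2 library 58, and with TPM rescaled by the TMM factors of edgeR 79, so the edge of the set depended on scaling and on these libraries.

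The hairpins were then set side by side within the 35 genes, as a description since both sets of values served the choice. Both shEZH2 libraries were below both shE2F1 libraries in 10 genes and above them in 10, and the libraries overlapped in 15. Over all genes at 5 TPM or more these orders were found in 42.2% and 41%, which is read against a set chosen for being low in both. IGFBP4, COL8A1 and SEMA6B were the furthest toward shEZH2, with log2 ratios of mean shEZH2 to mean shE2F1 TPM of -1.78, -1.47 and -1.11. TNFRSF6B (-0.87) and KRCC1 (-0.76) came next, on as few as 8.73 and 23 expected counts in a knockdown library. Toward shE2F1, MXD3 (0.88), TNFAIP8L1 (0.80), LFNG (0.77) and CST6 (0.57) stood furthest, beside ENSG00000267645, whose libraries listed at 0 TPM leave its ratio without meaning. SNCG, with a mean of 2.98 TPM in each knockdown, was even between them, on as few as 10 expected counts in a knockdown library.

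**Figure D3:**
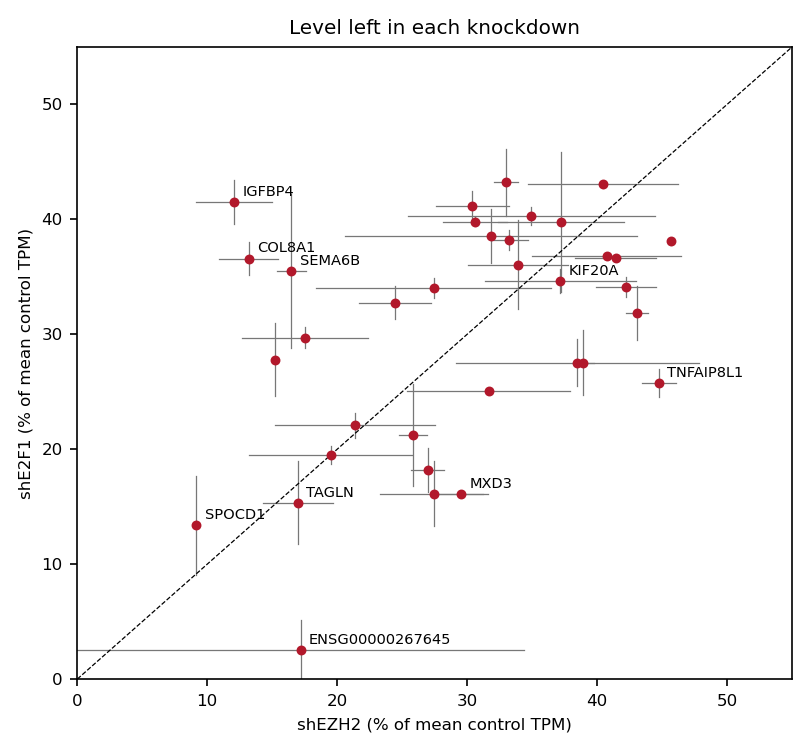
Each point is 1 of the 35 genes, with its mean level in shEZH2 on the x axis and in shE2F1 on the y axis as a percent of the mean control TPM, and lines that join the 2 libraries of each knockdown. The points run from 9.16% to 45.7% on the x axis and from 2.55% to 43.2% on the y axis. IGFBP4, COL8A1 and SEMA6B lie above the dashed line of equal levels and MXD3 and TNFAIP8L1 below it.

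The pathway lists held 5 of the 35 genes (14.3%) and 410 of the 9396 genes at 5 TPM or more (4.36%). The lists were chosen with earlier results of these data known, so these shares are a description without a test. The shares by list below use the same libraries as the rule. Of 11 lists of cell cycle, metabolic, matrix, signalling and other genes, PSRC1 was in the G2/M list, KIF20A in the list of mitotic exit and cytokinesis, PFKL in glycolysis and sugar metabolism, TAGLN in actin and adhesion, and IGFBP4 in matrix and secreted matrix factors. The lists of S phase, interferon-stimulated, p53 target, cholesterol synthesis, vesicle trafficking and TGF-beta response genes held 0 of them. Among genes at 5 TPM or more, all 4 knockdown libraries were below both controls in 21 of 33 genes of mitotic exit and cytokinesis (63.6%), 24 of 53 of G2/M (45.3%), 17 of 45 of glycolysis and sugar metabolism (37.8%) and 16 of 53 of actin and adhesion (30.2%). The same held for 9 of 42 S phase genes (21.4%), 8 of 40 matrix genes (20%), 6 of 39 genes of vesicle trafficking (15.4%) and 1117 of all 9396 genes (11.9%). It held for 3 of 27 genes of TGF-beta response (11.1%), 2 of 21 p53 targets (9.52%), 2 of 25 of cholesterol synthesis (8%) and 2 of 36 interferon-stimulated genes (5.56%). Genes left out by name are in none of these counts.

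The genes differed from the rest in base composition, which the rule did not use. The longest annotated transcript of each gene had a median GC content of 59.0%, against 47.8% for all genes at 5 TPM or more, and 31 of the 35 were above the latter. Split into GC quartiles, the 9396 genes gave 1, 3, 8 and 23 members from the lowest quartile to the highest, or 0.0426%, 0.128%, 0.341% and 0.979% of each quartile. In shEZH2 the median level of all genes moved with the same quartiles, from 125% of control in the lowest through 118% and 105% to 88.2% in the highest, while in shE2F1 it was 112% in the lowest and 109.6% in the highest. The part of GC content in the choice of the genes was not tested. Transcripts of the set were also shorter, with a median of 2989 bases against 3828. The genes lay on 16 chromosomes, with 5 on chromosome 11, 4 each on chromosomes 17 and 19 and 3 or fewer on any other.

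**Figure D4:**
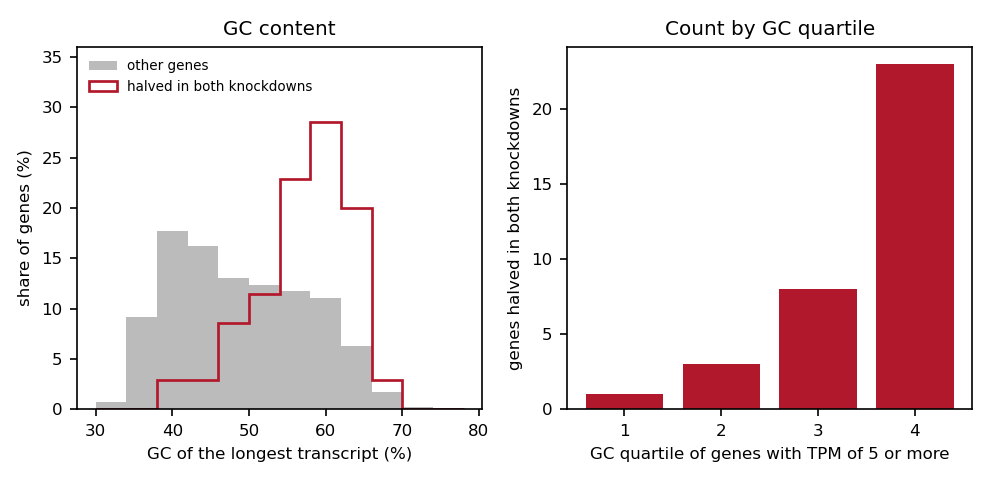
The left panel gives the share of genes (percent, y axis) by the GC content of the longest transcript (percent, x axis) for the 35 genes (red line) and the other genes at 5 TPM or more (grey). The right panel counts the 35 genes by GC quartile of all 9396 genes, with 23 in the highest quartile and 1 in the lowest.

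The drug experiment was not used in choosing the genes, so its libraries show the genes' level in cells for which the labels name no shRNA. In all 35 genes both DMSO libraries exceeded all 4 knockdown libraries, against 12.6% of genes at 5 TPM or more. Low knockdown values and high control values were both part of the choice, so this order and the shares against the controls that follow are partly fixed by it. The comparison crosses experiments that differ in transduction, selection and solvent, and it carries no test. Against the controls themselves, both DMSO libraries were below both control libraries in 17 genes (48.6%, against 27.1% of genes at 5 TPM or more), above in 5 (14.3%, against 24.7%) and overlapping in 13. The mean DMSO level had a median of 88.7% of the mean control level in the set and 99.9% over genes at 5 TPM or more. LRRC61 was the furthest below, with 35.03 and 34.9 TPM in DMSO or 38.3% of control, and TAGLN followed with 5.83 and 7.61 TPM or 45.03% of control. CST6 (45.2 and 53.5 TPM, 62.9%) and the mitotic genes KIF20A (62.5 and 62.1 TPM, 66.8%) and PSRC1 (45.1 and 50.2 TPM, 67.4%) were also below both controls. For these genes the distance from DMSO to the knockdown libraries was shorter than the distance from the controls. SLC29A2 was the furthest above, with 17.8 and 17.9 TPM in DMSO against 10.2 and 6.34 TPM in the controls. KRCC1, SLC27A5, RTKN and ITGA3 were above both controls by less.

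The question put by the GSK126 libraries was whether inhibition of the methyltransferase moved the same genes. In a fit without a replicate term, all 35 were tested among 14632 genes, and 0 of them were called (edgeR quasi-likelihood test, adjusted p under 0.01 and more than 2-fold), where 0% of all genes tested were called. DESeq2 called 0 of the 35, against 0.0571% of the genes to which it gave an adjusted p. At an unadjusted p under 0.05, edgeR found 1 of the 35 (2.86%, against 3.94% of all genes tested) and DESeq2 1 (against 1.12%). The fitted log2 changes of the 35 had a median of 0.03, against -0.01 over all genes tested, and ran from -0.26 to 0.62. By direction 22 were above 0 and 13 below, a split not counted over all genes tested. Leaving out 1 library at a time gave from 12 above and 23 below to 28 above and 7 below. With 2 libraries a group a change well under 2-fold could pass unseen, so the count of 0 does not show that the genes did not respond. When a replicate term was added, edgeR called 0 of the 35 and 68 of all 14632 genes. In that fit 9 of the 35 and 1990 of all genes had an adjusted p under 0.05 with no fold requirement. The labels do not say that replicate numbers mark a shared day or culture. In the knockdown fits the changes nearest to 0 were -1.28 in shEZH2 and -1.004 in shE2F1 on the log2 scale.

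IGFBP4 was the gene with an unadjusted p under 0.05 in both edgeR and DESeq2. It had 769.6 and 773 TPM in DMSO and 982 and 965 TPM in GSK126, a fitted log2 change of 0.32 ± 0.10 (SE, adjusted p = 1.00 by edgeR). Both GSK126 libraries exceeded both DMSO libraries, whereas its shEZH2 and shE2F1 libraries were below their controls. The adjusted p values in this paragraph are from the fit without a replicate term. With that term edgeR gave 4.64e-13 for IGFBP4, 0.00291 for TAGLN and 3.71e-08 for COL8A1. TAGLN had 5.83 and 7.61 TPM in DMSO and 8.82 and 13.3 TPM in GSK126, the largest fitted change of the set at 0.62 ± 0.29 (adjusted p = 1.00 by edgeR). The size of the TAGLN change rested on single libraries, at 0.27 without the second GSK126 library and 0.37 without the first DMSO library. It was 0.90 and 0.92 without the first GSK126 or the second DMSO library. Among fits without 1 library, TAGLN kept the largest change of the 35 only without the second DMSO library. The largest was 0.36 (MOXD1) without the second GSK126 library and 0.40 in another gene without the first DMSO library. Without the first GSK126 library another gene had 1.02, more than 2-fold. Within replicates TAGLN was higher in GSK126 by 0.60 and 0.80 on the log2 scale. MOXD1, SLC29A2 and LFNG had the next smallest p among the positive changes, at 0.29 ± 0.14, 0.26 ± 0.13 and 0.26 ± 0.14. On the negative side COL8A1 had 140.2 and 162 TPM in DMSO and 136 and 139.9 TPM in GSK126, with a fitted change of -0.26 ± 0.11 (adjusted p = 1.00 by edgeR). In TPM its log2 ratios within replicates were -0.04 and -0.21. SLC20A1 (-0.21 ± 0.11), CST6 (-0.25 ± 0.20), AXL (-0.07 ± 0.09) and STK40 (-0.09 ± 0.12) followed. The CST6 change was -0.02 without the second DMSO library and -0.45 without the first.

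By group, the 6 genes of actin, adhesion and matrix had fitted GSK126 changes from -0.26 to 0.62 with 3 above 0. The 6 genes of surface and secreted signalling ran from -0.25 to 0.32 with 4 above 0. The 8 metabolic and transport genes ran from -0.21 to 0.26 with 6 above 0. KIF20A and PSRC1 were at 0.01 ± 0.11 and 0.04 ± 0.15 and SRF at -0.02 ± 0.14, all smaller than their errors. Each of the larger groups held genes on both sides of 0.

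Read library by library in TPM, both GSK126 libraries were above both DMSO libraries in 11 genes (31.4%, against 15.4% of genes at 5 TPM or more), below them in 3 (8.57%, against 10.8%) and overlapping in 21. The 11 were IGFBP4, TAGLN, MOXD1, SLC29A2, LFNG, RTKN, SEMA6B, AIF1L, SPOCD1, KIF20A and PSRC1, and the 3 were CST6, AXL and COL8A1. Some of these orders rested on narrow margins. The lower GSK126 library was at 50.28 TPM against 50.25 TPM in the higher DMSO library for PSRC1, and at 63.6 against 62.5 TPM for KIF20A. For COL8A1 the higher GSK126 library was at 139.91 TPM against 140.19 TPM in the lower DMSO library. Within replicates, GSK126 was higher than DMSO in both pairs in 16 genes (45.7%, against 33% of genes at 5 TPM or more) and lower in both in 7 (20%, against 29.9%). Replicate 1 gave a median log2 ratio of 0.03 and replicate 2 of 0.07, while the same medians over genes at 5 TPM or more were 0.008 and 0.003. The median of the fitted changes, 0.03, rested on single libraries. Leaving out 1 library at a time moved this fitted median between -0.09 and 0.15. It was below 0 without the first DMSO or the second GSK126 library.

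**Figure D5:**
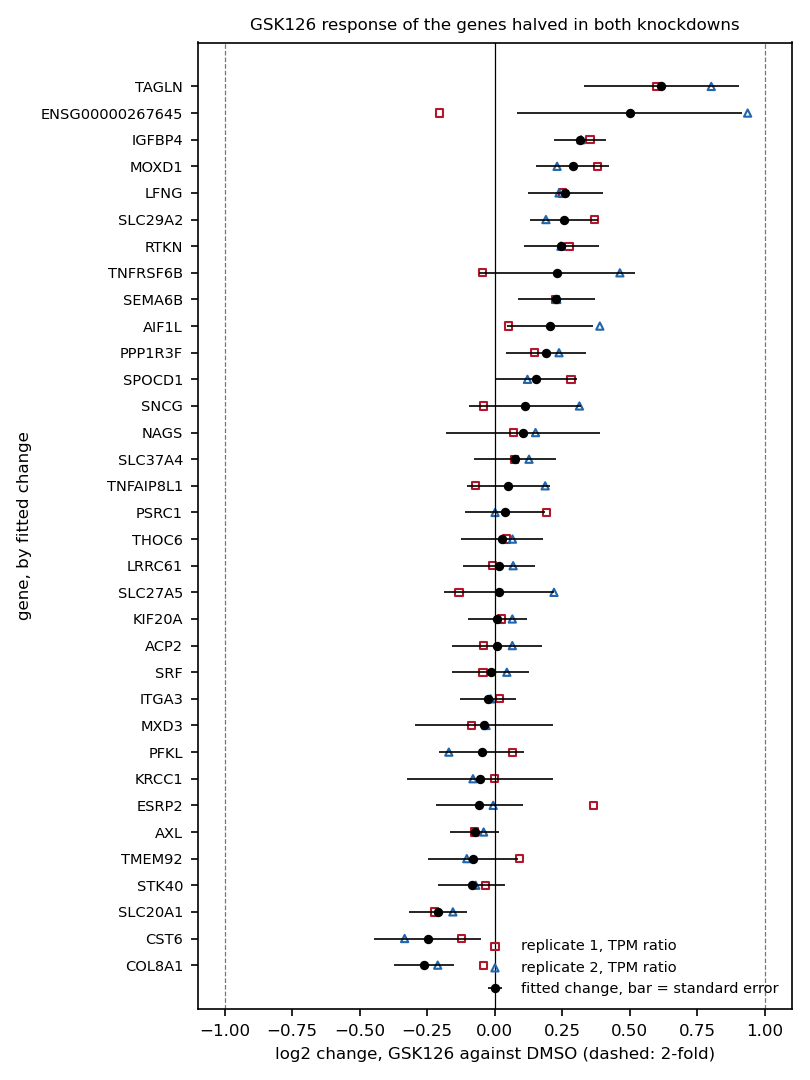
For 34 of the 35 genes, ordered by fitted change, the black point gives the log2 change of GSK126 against DMSO with its standard error, and open symbols give the TPM ratio within replicates 1 and 2. All black points lie between the dashed lines of 2-fold change, from COL8A1 at -0.26 to TAGLN at 0.62.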

How the data were processed

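RNA was made into strand-marking poly(A) libraries. Per the labels and the study's methods, the authors aligned reads with STAR (2.7.2b in the submitters' processing notes, a different version in the study's methods) to hg38 and quantified Ensembl genes with RSEM 1.3.1; whether strand was used is not given in the sources used here. The deposited per-library tables hold expected counts and TPM per gene, and the RSEM posterior mean and standard deviation of the count. TPM was used for levels and the choice of genes. Gene types, symbols, coordinates, transcript length and GC came from GENCODE v44 (99.9% of 62703 genes matched). Expected counts were rounded and fitted in edgeR 4.0.16 (TMM, filterByExpr, quasi-likelihood F-test, Benjamini-Hochberg) in R 4.3.3, over 6 knockdown and 4 drug libraries, with DESeq2 1.42.0 as an alternative. Called means adjusted p under 0.01 and over 2-fold, as in the study. The fits were tested on simulated data. Sequences were RefSeq windows. Each library holds 13198932 to 20055550 counts, and 3 counts equal 0.15 to 0.227 CPM. The 35 genes, 11 lists and 7 motifs were chosen with earlier results of these data known. Named genes were the 15 with the smallest ratio, the 10 with the highest control level, list members, the 5 at each extreme between hairpins, the 5 with the smallest p in each direction under GSK126, and 4 on each side of the threshold; others were named by role. Other scalings, filters, offsets, a replicate term, left-out libraries and the 10 libraries in 1 fit were the alternatives. One of the 35 genes is counted throughout and is not reported by name here.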

Additional observations from a re-analysis of the deposited data

How the results depend on the processing

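The set of 35 genes depended on scaling and on single libraries. The same rule gave 79 genes on TPM rescaled by TMM factors (all 35 among them), 86 on TMM-scaled CPM (32 of the 35, without TNFRSF6B, SLC27A5 and PPP1R3F) and 85 on group means (all 35). A minimum of 2 TPM gave 42 genes and of 10 TPM 25. Leaving out 1 library gave 36 to 109 genes, with 109 without the second control library and 58 without the first shEZH2 library, and a rule with fewer libraries keeps the 35 by construction. The median log2 change of the 35 in shEZH2 was -1.84 and without 1 library -2.09 to -1.72, and in shE2F1 -1.85 and -1.91 to -1.84; DESeq2 and the replicate block moved neither median beyond the spread between libraries. In GSK126, 0 of the 35 were called at adjusted p under 0.01 and over 2-fold in any fit, where over all genes DESeq2 called 10, the fits without 1 library 37 to 43, the replicate block 68 and the other fits 0, so few calls were to be found among any 35 genes. At an unadjusted p under 0.05, added after seeing the data, 1 of the 35 passed, and the count depended on the fit: 2 with no filter or with the length offset, 0 to 3 without 1 library and 13 with the replicate block. The median log2 change of 0.03 went from -0.0912 to 0.147 without 1 library, where the lone library of a group is assumed to vary like the other group. STK40 (-0.09) was at 0.027 without the second DMSO library and down to -0.187 without the first.

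The replicate numbers of DMSO and GSK126 come from the labels, which do not say that they mark a shared day or culture. Differences between replicates 2 and 1 correlated across genes between DMSO and GSK126 (0.583), and by -0.00123 to 0.118 among the shRNA groups. With the replicate block, 0 of the 35 and 68 of all 14632 genes were called at 2-fold, while 9 had an adjusted p under 0.05 with no fold requirement (IGFBP4 at 4.64e-13, COL8A1 at 3.71e-08, SLC20A1 at 1.07e-05 and TAGLN at 0.00291 by edgeR, and SLC29A2, AXL, SEMA6B, RTKN and LFNG), where 1990 of all genes did, against 0 without the block in each case.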
